A study of Mus musculus with 4 samples.

Results

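The ephrins and their Eph receptors were followed in mouse C3H10T1/2 cells, a multipotent mesenchymal line from C3H embryos, through 10 genes: the A-type receptors Epha2, Epha3, Epha4 and Epha7, the B-type receptors Ephb2, Ephb3 and Ephb4, and the ephrins Efna5, Efnb1 and Efnb2. They were taken by symbol from the 20325 genes of the deposited expression matrix, which holds 22 family genes in all. K36M cells stably carried a FLAG-HA-tagged histone H3.3 with lysine 36 replaced by methionine (2 libraries), and WT cells carried the same tagged histone without the substitution (2 libraries), so both lines hold a transgene. The comparison asks how expression differs when cells carry the mutant histone, which is known to block the enzymes that methylate H3K36. The labels give the same culture medium and passage range for both lines. Neither the transgene's promoter nor whether a line was a pool or a clone is stated in the labels. They do not state whether the 2 libraries of a line had separate cultures behind them, so the p-values reflect the spread of these libraries alone, and that spread may be technical. Gene counts do not show which base the histone transgene carries, so they give no check of the labels.

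Eph receptors are receptor tyrosine kinases whose ligands, the ephrins, sit on the surface of neighbouring cells, so that signalling needs cell contact. A-type receptors mostly bind ephrin-A ligands, which are held in the membrane by a lipid anchor, and B-type receptors mostly bind ephrin-B ligands, which span the membrane and signal back into their own cell. In mesenchyme the system is known for keeping cell populations apart, for guiding migration and for patterning bone, the palate and blood vessels.

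To place the genes at the level of sequence, the 250 bases before the annotated start are printed for 4 of them: Epha2, with the largest rise in K36M cells among the 9 tested members, Efnb2, the only ephrin of the 10 genes that rose, Efna5, the member with the largest fall, and Ephb3, the receptor with the largest fall. The sequences are RefSeq promoters on GRCm38.p6, a later build than the mm9 build used for the counts, and run 5′ to 3′ on the gene's strand. Capitals mark the GC box, GGGCGG or its reverse complement CCGCCC.
Epha2, chr4:141300971-141301220, plus strand: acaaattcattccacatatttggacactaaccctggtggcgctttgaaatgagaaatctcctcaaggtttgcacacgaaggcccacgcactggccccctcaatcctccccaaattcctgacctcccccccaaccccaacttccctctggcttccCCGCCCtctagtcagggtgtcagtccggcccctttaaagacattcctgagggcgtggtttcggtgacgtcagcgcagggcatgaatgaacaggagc
Efnb2, chr8:8661243-8661492, minus strand: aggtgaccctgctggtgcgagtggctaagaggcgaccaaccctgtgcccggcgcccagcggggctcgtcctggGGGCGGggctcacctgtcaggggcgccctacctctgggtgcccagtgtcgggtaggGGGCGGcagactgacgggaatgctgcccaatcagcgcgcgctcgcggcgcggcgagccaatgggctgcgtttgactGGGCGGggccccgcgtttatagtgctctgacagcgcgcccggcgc
Efna5, chr17:62881318-62881567, minus strand: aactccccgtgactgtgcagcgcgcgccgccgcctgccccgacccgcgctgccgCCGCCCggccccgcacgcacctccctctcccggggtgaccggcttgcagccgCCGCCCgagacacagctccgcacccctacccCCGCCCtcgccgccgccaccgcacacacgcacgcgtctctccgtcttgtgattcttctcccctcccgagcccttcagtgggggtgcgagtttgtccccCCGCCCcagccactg
Ephb3, chr16:21204545-21204794, plus strand: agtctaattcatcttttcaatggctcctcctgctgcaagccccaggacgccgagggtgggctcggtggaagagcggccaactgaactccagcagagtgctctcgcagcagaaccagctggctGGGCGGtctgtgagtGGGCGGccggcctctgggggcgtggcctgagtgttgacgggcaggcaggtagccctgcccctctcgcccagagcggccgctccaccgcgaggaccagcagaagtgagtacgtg
A GC box was present in these windows for 7 of the 10 genes, against 32.9% of the 27025 genes with a RefSeq promoter. The windows of Epha2, Efnb2, Efna5 and Ephb3 held 9, 27, 32 and 16 CpG dinucleotides, where the median of all genes was 6. Counted on both strands, the Notch effector motif TGGGAA stood in 3 of the 10 windows (Epha4, Epha7 and Efnb1, 21.5% of all genes), the TEAD motif GGAATG in 3 (Epha2, Epha3 and Efnb2, 12.6%), TATAAA in 1 (Efnb2, 13.0%) and the AP-1 motif TGANTCA in 0 (6.87%). Where a gene had several starts the one listed first was used, and the ends of TGGGAA and GGAATG can overlap. Genes that rose and genes that fell both held GC boxes. All genes here include those not expressed in these cells, and no share matched for CpG was computed.

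Of the 10 genes, 5 rose in K36M cells, 3 fell, Ephb4 did not pass the test and Epha3 was too low to be tested. The 3 tested A-type receptors rose 1.76-fold to 3.15-fold, while their ligand gene Efna5 fell 7.50-fold. Among the B-type genes Ephb3 and Efnb1 fell 3.64-fold and 3.56-fold and Efnb2 rose 2.53-fold. Values are CPM, the RSEM expected counts (estimated read numbers) relative to each library's effective size. Each gene was tested with edgeR's quasi-likelihood test across all genes, and a gene is called at a Benjamini-Hochberg adjusted p under 0.05. Of 13162 genes tested, 75.6% were called (38.5% higher and 37.1% lower in K36M), so 8 calls among 9 tested genes is close to the share among all genes. Over all genes the split was 5070 higher and 4879 lower, with total-count scaling 5542 and 4367, and 4360 and 5709 with the library factors of the authors' second table, so which direction held more genes depended on the scaling. At least 2-fold changes were called for 6 of the 9, 3 in each direction, against 21.3% of all genes. The median absolute log2 fold change was 1.44 over the 9 and 0.38 over all genes. Among the 9 other family genes tested, 2 were called at 2-fold or more, Epha5 at 0 counts in WT among them. Their median absolute log2 fold change was 0.65. The 10 genes were chosen with earlier results of these data known, so the contrast may reflect that choice, which was not tested. CPM of the libraries did not overlap between groups for 8 of the 9 and for 87.1% of all genes.

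**Figure D1:**
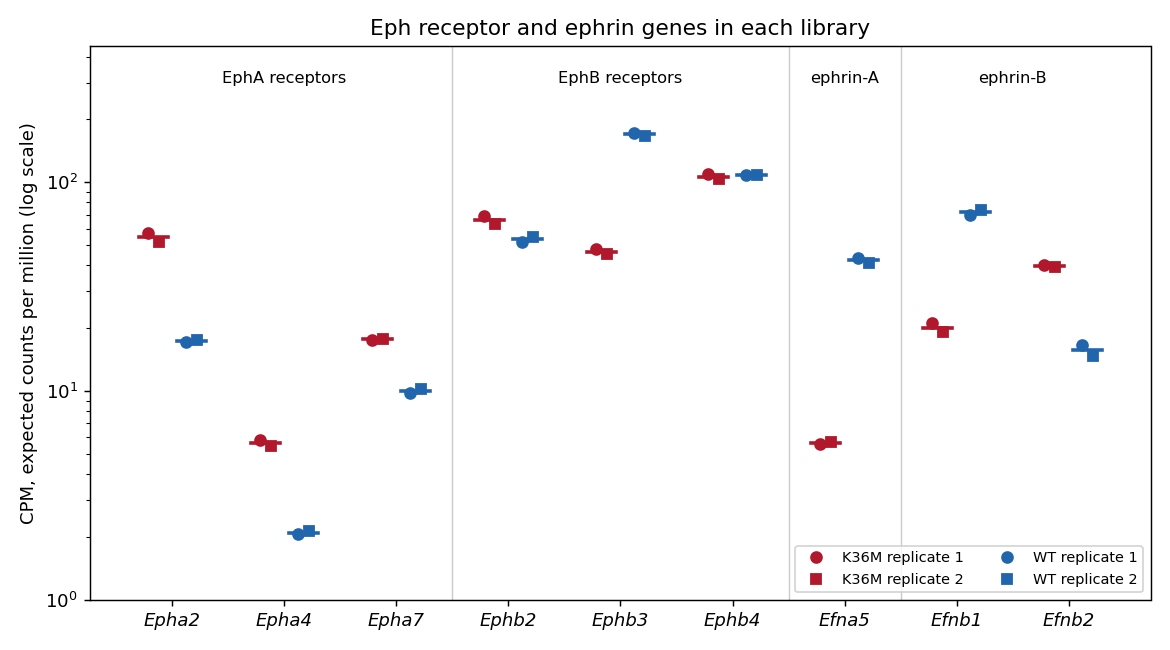
CPM (log axis) of the 9 tested genes in each library, K36M left of WT. Points are libraries and bars are group means (n = 2). The groups are apart for every gene shown except Ephb4, where the K36M libraries at 109 and 104 CPM lie around the WT libraries. Epha3, at 0 counts in WT, is left out.

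Library totals ranged from 34022137 to 56041798 expected counts in K36M and from 23343297 to 25322433 in WT, with K36M 1.85 times as deep on average. Libraries of a group correlated at r = 0.997 in K36M and 0.995 in WT over the log2 CPM of tested genes, and at 0.894 to 0.896 across the lines. All 12 mesenchymal markers were above 1 CPM somewhere, and their summed level was lower in K36M, at 32222 and 30395 CPM against 50278 and 50614 CPM in WT. Of the 12, 4 rose, with Thy1 11.2-fold higher, 6 fell, with Fn1 3.04-fold and Col3a1 2.88-fold lower, and Prrx1 and S100a4 were not called. Prrx1, a limb mesenchyme factor, stood at 821 and 852 CPM in K36M and at 798 and 797 CPM in WT. Of 10 endothelial markers 6 were under 1 CPM in every library, Pecam1 and Kdr among them, and Cldn5 was at 0 throughout. Their summed level was 84.6 to 88.2 CPM in K36M and 79.4 to 80.0 CPM in WT. The largest part was Flt1 (69.5 and 67.9 CPM in K36M, 39.6 and 41.6 CPM in WT), and Tek fell to 4.88 and 4.58 CPM in K36M against 28.9 and 27.3 CPM in WT. Of 4 tested, Flt1 and Cdh5 were called higher (1.69-fold and 3.22-fold), Tek was called lower and Vwf was not called. Epithelial markers summed to 25.1 and 26.5 CPM in K36M and to 12.5 and 11.3 CPM in WT, led by Cdh1 in K36M (22.3 and 24.1 CPM) and by Cdh1 and Krt14 in WT (5.26 to 5.97 CPM), with Epcam and Cldn4 at 0. Of 4 tested, 3 were called higher, all but Cdh1 under 1 CPM, and Krt14 fell 7.44-fold. Krt8 and Krt19, with 3 and 4 and with 9 and 5 counts in WT, passed the low-count filter only through K36M. Their calls are no added support. Neural and glial markers summed to 27.0 and 26.5 CPM in K36M and 16.7 and 15.8 CPM in WT, mostly through Tubb3, with Olig2 at 0. Of 3 tested, only Tubb3 rose, while Gfap fell 3.32-fold and Mbp 1.62-fold. Blood and macrophage markers summed to 9.77 and 9.30 CPM in K36M and to 4.56 and 4.69 CPM in WT, led by Lyz2, and none was at 0 in all libraries. Of 4 tested, 2 rose, Fcgr1 fell 2.76-fold and Cd68 was not called. Csf1r, which is counted as rising, had 7 and 2 counts in WT and passed the filter only through K36M, so its call is no added support. The part of these markers in the results below was not tested, and in bulk RNA fewer cells of a type and less RNA per cell cannot be told apart.

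Among the A-type receptors, Epha2, which mainly binds ephrin-A1 and is often abundant in epithelia and tumours, stood at 57.4 and 51.7 CPM in the K36M libraries and at 17.2 and 17.6 CPM in the WT libraries. Both K36M libraries were about 3 times the WT level, and the log2 fold change was 1.65 ± 0.06 (SE, n = 2 each, edgeR adjusted p = 3.42e-14). Epha4, a receptor that binds ephrins of both types, stood at 5.83 and 5.47 CPM in K36M and at 2.06 and 2.13 CPM in WT. It was low in both lines and 2.71-fold higher in K36M (log2 fold change 1.44 ± 0.14 SE, edgeR adjusted p = 3.98e-08). Epha7, known for repulsion and boundary formation in the nervous system, stood at 17.6 and 17.7 CPM in K36M and at 9.76 and 10.3 CPM in WT. Its rise was the smallest of these 3 receptors, 1.76-fold (log2 fold change 0.82 ± 0.08 SE, edgeR adjusted p = 5.20e-08).

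Epha3, a receptor for ephrin-A5, was at the edge of detection. It had 6 and 10 expected counts in the K36M libraries and 0 in both WT libraries. Its pooled K36M level of 0.175 CPM was 2.79 times a floor of 3 counts over both WT libraries (0.0628 CPM). That ratio leaves out the counting error of the K36M counts. Its level in K36M was 0.106 and 0.288 CPM. The low-count filter removed it, and as WT gave no counts no call is drawn for it.

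The B-type receptors did not move together. Ephb3, which with Ephb2 is known for cell positioning in the intestinal crypt and for growth of the palate, stood at 47.9 and 45.1 CPM in K36M and at 172 and 167 CPM in WT. Every K36M library lay far below both WT libraries, and the fall was 3.64-fold (log2 fold change -1.87 ± 0.05 SE, edgeR adjusted p = 4.24e-17). Ephb2 stood at 68.9 and 62.9 CPM in K36M and at 51.7 and 54.7 CPM in WT. The groups were apart by a small margin, a 1.24-fold rise (log2 fold change 0.31 ± 0.05 SE, edgeR adjusted p = 3.58e-05). Ephb4, the receptor that prefers ephrin-B2 and marks veins, stood at 109 and 104 CPM in K36M and at 108 and 108 CPM in WT. Its libraries overlapped, and it did not pass the edgeR test (log2 fold change -0.03, 95% interval -0.12 to 0.07, adjusted p = 0.614). With the library factors of the authors' second table in place of TMM, Ephb4 was called lower (log2 fold change -0.11, adjusted p = 0.0272), and over all 13 alternatives its log2 fold change ran from -0.11 to 0.03.

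Efna5, the lipid-anchored ligand of EphA receptors that also binds EphB2, showed the largest change of the 9 tested members. It stood at 5.60 and 5.67 CPM in K36M and at 43.3 and 41.1 CPM in WT. The libraries of each line lay close together, and the fall was 7.50-fold (log2 fold change -2.91 ± 0.07 SE, edgeR adjusted p = 6.05e-17). Efnb1, an X-linked transmembrane ligand whose loss in humans causes craniofrontonasal syndrome, stood at 21.1 and 19.1 CPM in K36M and at 70.0 and 73.9 CPM in WT, a 3.56-fold fall (log2 fold change -1.83 ± 0.06 SE, edgeR adjusted p = 8.79e-16). Efnb2, the ligand of EphB4 that marks arteries, stood at 40.3 and 39.1 CPM in K36M and at 16.7 and 14.7 CPM in WT, a 2.53-fold rise (log2 fold change 1.34 ± 0.07 SE, edgeR adjusted p = 1.25e-12). The pair of ephrin-B genes thus moved in opposite directions with no overlap between groups.

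Ratios of a pair of genes within a library do not depend on how libraries are scaled to each other. Of the counts on Efnb1 and Efnb2 together, Efnb2 held 65.7% (95% exact binomial interval 64.1 to 67.3) and 67.2% (65.1 to 69.2) in the K36M libraries, and 19.2% (17.6 to 21.0) and 16.6% (15.0 to 18.3) in the WT libraries. The share was at least 3 times as high in either K36M library as in either WT library. Of the counts on Ephb2 and Ephb3 together, Ephb2 held 59.0% and 58.3% in K36M and 23.1% and 24.6% in WT. Of those on Ephb4 and Ephb3, Ephb4 held 69.5% and 69.7% in K36M and 38.7% and 39.3% in WT. Both shares were higher in each K36M library than in each WT library, and as gene lengths differ they do not rank the genes within a library. Counts on Ephb4 were 2.71 and 2.65 times those on its ligand gene Efnb2 in K36M and 6.51 and 7.35 times in WT. Epha2 counts were 10.2 and 9.13 times those on Efna5 in K36M and 0.397 and 0.429 times in WT. For each of these 5 ratios the 2 lines did not overlap. The pairs join genes whose fold changes, given above, differ, so this restates those changes and is no added support. No share over all gene pairs was computed. The exact two-sided permutation test on the log2 ratio gave p = 0.333 for each, also after adjustment over the 5. That is the smallest p that 2 against 2 libraries allow. The binomial intervals cover counting error only.

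Levels of different genes were set side by side per kilobase, using the longest coding transcript of each gene in GENCODE vM21 on GRCm38. On that scale of CPM per kilobase the members in K36M ran, from the highest, Ephb4 (24.5 ± 0.88, SD, n = 2), Epha2 (13.9 ± 1.02), Ephb3 (9.79 ± 0.42), Efnb2 (8.28 ± 0.19), Efnb1 (6.16 ± 0.43), Ephb2 (6.05 ± 0.39), Epha7 (2.62 ± 0.01), Efna5 (1.40 ± 0.01) and Epha4 (0.893 ± 0.040). Efnb1 and Ephb2 did not differ beyond their spread there. In WT the order was Ephb3 (35.7 ± 0.71), Ephb4 (25.0 ± 0.03), Efnb1 (22.1 ± 0.85), Efna5 (10.5 ± 0.38), Ephb2 (4.88 ± 0.19), Epha2 (4.45 ± 0.08), Efnb2 (3.27 ± 0.29), Epha7 (1.48 ± 0.05) and Epha4 (0.331 ± 0.008). Epha3 was last in both. Efnb2 thus stood above Efnb1 in K36M and below it in WT, and Ephb4 above Ephb3 in K36M and below it in WT, and both hold per kilobase of coding sequence too. Efna5 took place 8 in K36M and place 4 in WT, while Epha2 took place 2 in K36M and place 6 in WT. Per kilobase of coding sequence Efnb2 was the highest member in K36M (39.4 ± 0.89) and Efnb1 in WT (69.5 ± 2.66), so positions between ligands and receptors depend on the length used.

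Summed over all 22 family genes on the same scale, the A-type receptors came to 18.9 and 17.3 CPM per kilobase in K36M against 6.47 and 6.82 in WT, and Epha2 made up 77.7% and 76.6% of the sum in K36M against 67.9% and 66.1% in WT. B-type receptors came to 47.7 and 45.0 CPM per kilobase in K36M against 72.3 and 71.3 in WT. Ephb3 held 21.1% and 21.1% of that sum in K36M against 50.1% and 49.4% in WT, and Ephb4 held 52.7% and 53.1% in K36M against 34.6% and 35.0% in WT. A-type ephrins came to 18.7 and 18.5 CPM per kilobase in K36M against 32.1 and 30.7 in WT. Efna5 held 7.44% and 7.61% of them in K36M against 33.5% and 33.2% in WT, and Efna1 was the largest of the class on this scale in all 4 libraries. B-type ephrins came to 15.7 and 14.8 CPM per kilobase in K36M against 25.4 and 26.3 in WT. The receptor sum over the ephrin sum was 1.94 and 1.87 in K36M against 1.37 and 1.37 in WT. Per kilobase of coding sequence it was 0.933 and 0.900 in K36M against 0.625 and 0.632 in WT, higher in K36M on both scales.

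**Figure D2:**
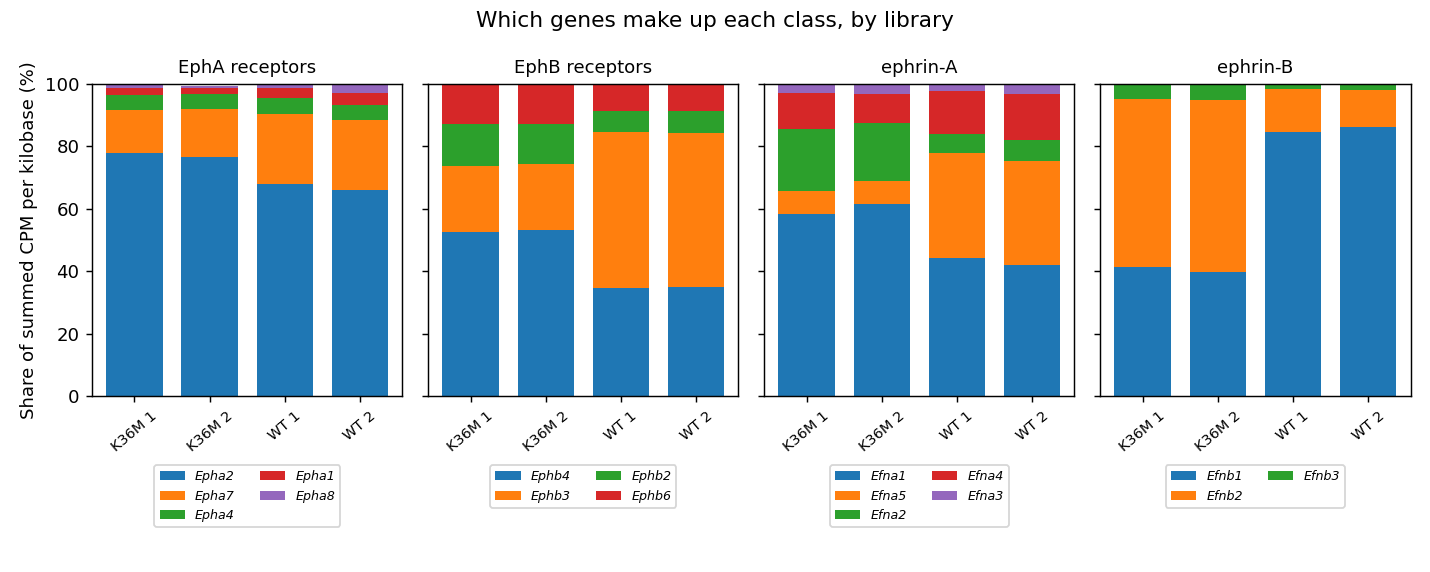
Share of each gene in the summed CPM per kilobase of its class, in percent, for the K36M and WT libraries. Genes under 1% in every library are not drawn. Ephb3 falls to 21.1% of the B-type receptors in K36M against 49.4% to 50.1% in WT, and Efnb2 makes up 53.7% and 55.2% of the B-type ephrins in K36M against 13.7% and 11.7% in WT.

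Of the other 12 family genes 9 passed the low-count filter, Epha5 only through its K36M libraries, so it is left out of the counts here. Of the 8 remaining, 3 rose, 3 fell, and Ephb6 and Epha8 did not pass the test, where 75.6% of all genes were called. The median log2 fold change was 0.14 over the 8 and 0.0035 over all genes. Efna2, an ephrin-A gene, stood at 7.94 and 7.31 CPM in K36M and at 4.28 and 4.43 CPM in WT (1.76-fold higher, edgeR adjusted p = 3.57e-06), so not all ephrin-A genes moved with Efna5. Efna4 stood at 3.42 and 2.68 CPM in K36M and at 6.98 and 7.17 CPM in WT (2.27-fold lower, edgeR adjusted p = 1.79e-07). Efna1, the main ligand of EphA2, stood at 17.7 and 18.5 CPM in K36M and at 23.2 and 21.1 CPM in WT (1.22-fold lower, edgeR adjusted p = 0.00129). Ephb6, a receptor whose kinase is inactive, stood at 23.2 and 21.8 CPM in K36M and at 23.8 and 23.1 CPM in WT (log2 fold change -0.05, 95% interval -0.19 to 0.09).

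Smaller calls among these genes were less firm. Efnb3 was higher in K36M at 2.48 and 2.39 CPM against 1.41 and 1.82 CPM in WT (log2 fold change 0.60, edgeR adjusted p = 0.00843), and lost its call without WT replicate 1 (0.134) and with the DESeq2 Wald test (0.0900). Efna3 was lower at 1.29 and 1.5 CPM in K36M against 1.86 and 2.48 CPM in WT (log2 fold change -0.65, edgeR adjusted p = 0.00890), and was not past it without K36M replicate 1 (0.0824), without WT replicate 2 (0.159) or with DESeq2 (0.0899). Epha1 was higher at 1.34 and 0.95 CPM in K36M against 0.686 and 0.826 CPM in WT (log2 fold change 0.65, edgeR adjusted p = 0.0464). It lost its call in 7 of 12 alternatives: without K36M replicate 1 (0.471), without WT replicate 1 (0.220), without WT replicate 2 (0.0713), with the replicate block (0.0716), with limma-voom (0.0713), with DESeq2 (0.245) and under the authors' factors (0.0784). Epha8 stood at 0.951 and 0.691 CPM in K36M and at 0.444 and 0.912 CPM in WT, with overlapping libraries. Epha5 had 23 and 12 expected counts in K36M and 0 in both WT libraries. Its pooled K36M level was 6.09 times the WT floor of 3 counts, counting error in K36M left out. Epha6, Epha10 and Ephb1 were at or under the floor in both lines, with 2, 1 and 0 counts in all.

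**Figure D3:**
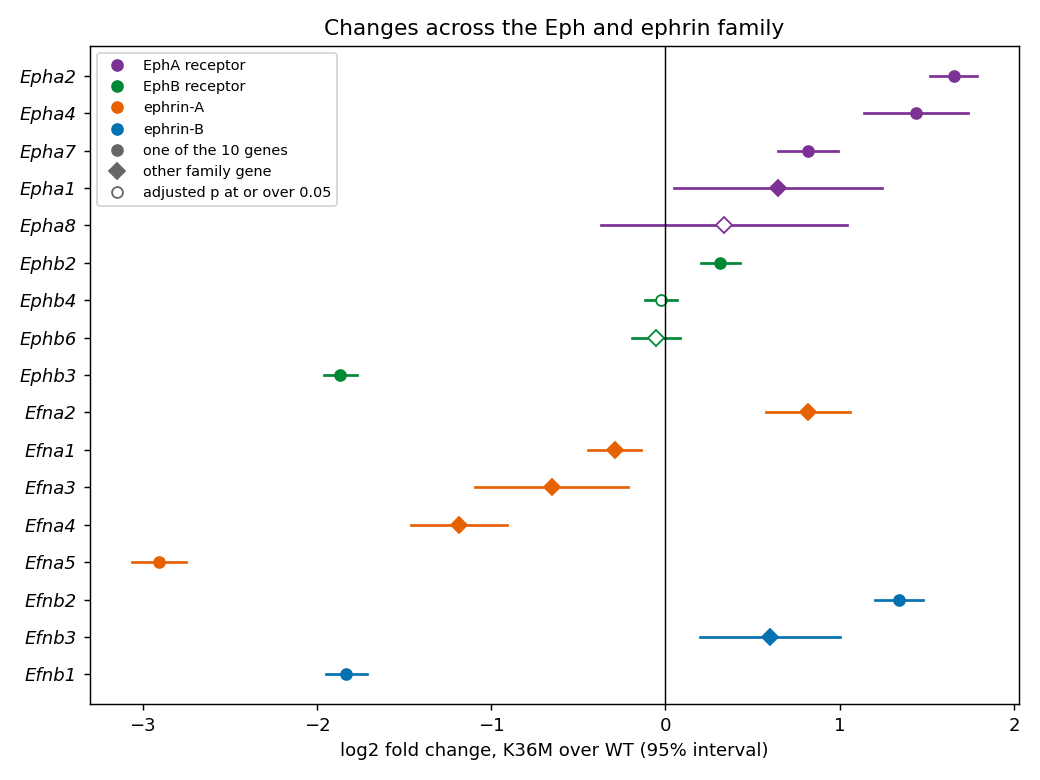
Log2 fold change, K36M over WT, with its 95% interval for 17 tested family genes, by class. Filled points passed an adjusted p of 0.05. The points of all EphA receptors shown lie right of 0, Efna5 (-2.91), Ephb3 (-1.87) and Efnb1 (-1.83) lie furthest left, and Epha5, at 0 counts in WT, is left out.

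Position was compared by the order of protein-coding genes in RefSeq. Efna1, Efna3 and Efna4 lie next to each other on chromosome 3 with 0 protein-coding genes between them, and all of them were lower in K36M (log2 fold change -0.29, -0.65 and -1.18), with Efna3 less firm as above. Efna5, on chromosome 17, has no family neighbour. Ephb2 and Epha8 on chromosome 4 are separated by 3 protein-coding genes, with log2 fold changes of 0.31 and 0.34, the last not past the test. Epha3 and Epha6 on chromosome 16 are separated by 4, and both were at the edge of detection. The sources used here do not say whether libraries kept strand. In the GENCODE basic set no exon of the 10 genes overlapped an exon of another gene, while Epha1 shared 236 exon bases with Zyx on the other strand, and Efna3 and Efna4 shared 344 and 168 with antisense genes, and without strand those reads cannot be told apart.

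The genes whose centred log2 CPM over the 4 libraries lay closest to Efna5 were Sh3rf3 (root mean square difference 0.019), Adamts12 (0.040) and Cobl (0.051), and those closest to Ephb3 were Trpv4 (0.016), Rhoj (0.018) and Dlk1 (0.023). With 2 groups of 2 libraries this likeness mostly restates the fold change, which was -2.88, -2.91 and -3.14 on the log2 scale for the first set and -1.84, -1.86 and -1.90 for the second.

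Genes of proteins that act with or just below Eph receptors and ephrins changed in both directions. Of 45 such genes in the matrix 43 were tested, 13 rose and 19 fell, which is 32 called where 75.6% of all genes were, with a median log2 fold change of -0.02. The split was 18 and 18 under upper quartile or total-count scaling, and 12 higher and 22 lower with the authors' factors. Changes of at least 1.5-fold were called for 12 of the 43, against 34.0% of all genes. The genes that fell, the calls and these 12 include Grip1, which passed the low-count filter only through its WT libraries.

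Chn1 moved furthest. Its product is a chimaerin, a protein that switches off the GTPase Rac, and is known to act below EphA4 in mouse axon guidance. Chn1 stood at 8.35 and 8.40 CPM in K36M and at 0.363 and 0.565 CPM in WT, 18.1-fold higher (edgeR adjusted p = 4.56e-13). Its relative Chn2 stood at 1.60 and 1.55 CPM in K36M and at 21.0 and 19.1 CPM in WT, 12.6-fold lower (edgeR adjusted p = 1.08e-15). The chimaerin genes thus moved in opposite directions, by more than any of the 9 tested receptors and ephrins above. Grip1, which encodes a PDZ scaffold that binds the tail of ephrin-B, stood at 0.141 and 0.173 CPM in K36M and at 2.34 and 2.26 CPM in WT, 14.7-fold lower (edgeR adjusted p = 1.35e-09). Grip1 was low and passed the low-count filter only through its WT libraries, so its call is no added support.

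Both Nck adaptor genes fell. Nck2, whose product binds phosphorylated ephrin-B, stood at 14.7 and 13.7 CPM in K36M and at 44.8 and 41.6 CPM in WT (3.03-fold lower, edgeR adjusted p = 5.65e-14). Its relative Nck1 stood at 21.4 and 18.6 CPM in K36M and at 40.6 and 38.1 CPM in WT (1.95-fold lower, edgeR adjusted p = 2.48e-10). Itsn1, which encodes a Cdc42 activator known to work with EphB2, stood at 89.6 and 85.5 CPM in K36M and at 233 and 237 CPM in WT (2.68-fold lower, edgeR adjusted p = 4.66e-16). Tns3, a tensin gene, fell 2.01-fold and the phosphatase gene Ptpn1 1.87-fold. Among kinases and the actin machinery, Rock2, an effector kinase of RhoA, rose to 477 and 491 CPM in K36M against 243 and 248 CPM in WT. The tyrosine kinase genes Src and Abl2 rose 1.82-fold and 1.51-fold, and Cfl1, the cofilin gene, 1.52-fold. Tyrosine kinase genes did not move together, as Fyn, Yes1 and Abl1 were called lower by edgeR (log2 fold changes -0.27, -0.28 and -0.23). Rhoa, Rasa1, Grb2 and Cdc42, which were picked with their values known, were not called by edgeR (log2 fold changes -0.02, 0.08, 0.03 and 0.06).

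**Figure D4:**
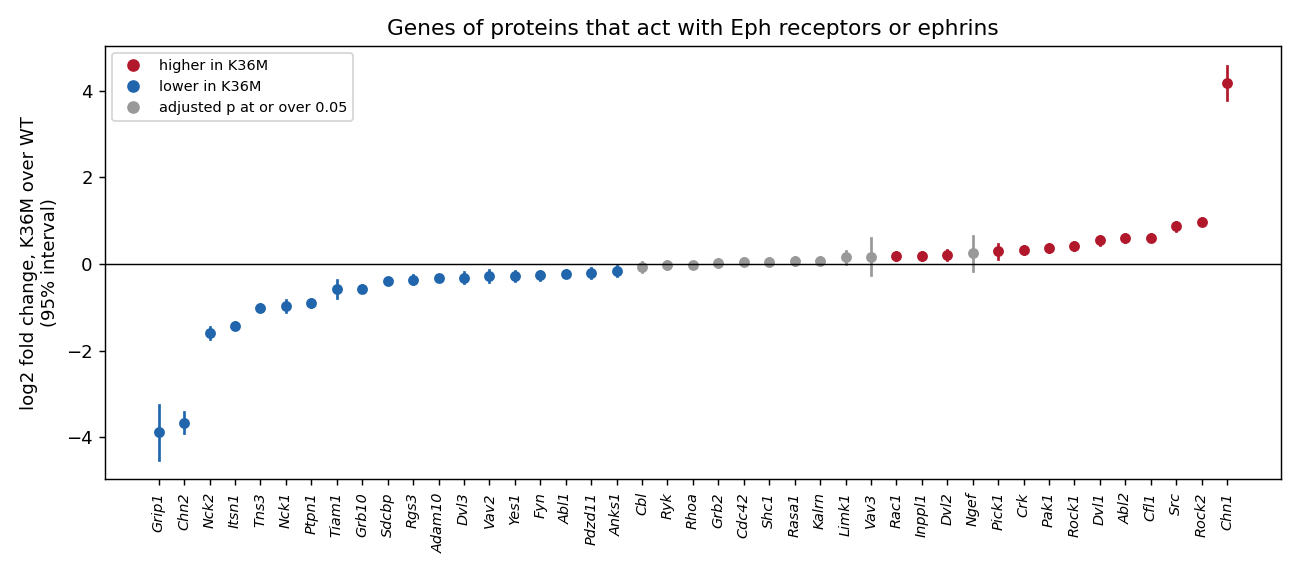
Log2 fold change, K36M over WT, with its 95% interval for the 43 tested genes of Eph and ephrin signalling, from the lowest to the highest. Chn1 stands alone at the top (4.17), Grip1 (-3.88) and Chn2 (-3.66) at the bottom, and most genes lie within 1 unit of 0.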

How the data were processed

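Expression was measured by RNA sequencing in 2 K36M and 2 WT libraries, grouped by title. The matrix deposited by the authors holds RSEM expected counts, estimated read numbers, per the file headers. Per the submitters' processing notes Bowtie 1.0.0, RSEM 1.2.12 and mm9 were used, and no annotation is named. A second table of 594 genes, deposited by the authors as log2 values and a linear fold ratio, holds 0 of the 22 family genes and served only for its library factors (0.553 and 0.915 for K36M, 1.35 and 1.46 for WT).

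Rounded expected counts went into edgeR 4.0.16 (R 4.3.3). Genes were filtered with filterByExpr and libraries scaled by TMM, and group was the only term of the quasi-likelihood fit. It left 2 residual degrees of freedom per gene and added 15.7 prior degrees of freedom from the spread over all genes. The p-values and standard errors thus rest largely on that shared spread. The p-values were adjusted by Benjamini-Hochberg over the 13162 genes tested. Standard errors are the log2 fold change divided by the root of F. CPM use TMM effective library sizes. Alternatives were other scalings, other low-count filters, the DESeq2 1.42.0 Wald test, limma-voom (limma 3.58.1), the replicate number as a block, and leaving out each library. A floor of 3 counts was used for genes at 0 counts.

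The members and gene lists were chosen with earlier results of these data known. All family genes are named, and of the signalling list at most 12 called genes with at least 1.5-fold change, by size. Fyn, Yes1, Abl1, Rhoa, Rasa1, Grb2 and Cdc42 are named besides, with their values known. Of a named alias pair (Anks1 and Anks1a) the matrix holds 1. Gene lengths and exon overlaps come from GENCODE vM21, and promoters from RefSeq. Precision is limited by depth for genes under about 1 CPM, where 3 counts in a library correspond to 0.0528 to 0.130 CPM. Reads were counted without molecular identifiers, so binomial intervals and floors cover counting error only, while intervals of log2 fold changes come from the edgeR fit and hold the spread between libraries too.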

Additional observations from a re-analysis of the deposited data

How the results depend on the processing

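The count of called genes among the 10 was 8, and 7 to 9 under the alternatives. It was 7 with a mean of at least 5 CPM, which removes Epha4, and 9 with no low-count filter, without WT replicate 1 or without WT replicate 2, which let in Epha3 through its K36M counts alone, so that this is no added support, and 9 with the authors' factors, which called Ephb4 lower. Epha2, Epha4, Epha7, Ephb2, Ephb3, Efna5, Efnb1 and Efnb2 kept their direction and call in each alternative that tested them. Leaving out a library in turn gave 8 to 9 called. Of the other family genes 7 were called with Epha5 (at 0 counts in WT) included, but 3 at a mean of at least 5 CPM, where only 4 were tested, 4 with the DESeq2 Wald test, and 4 to 7 when a library was left out, with 4 without K36M replicate 1. The labels give the same numbers to both groups, but same-numbered libraries did not deviate together (correlation of deviations 0.0026). With only 1 pair of libraries in each line, this cannot show whether same-numbered libraries shared a preparation. With the replicate block 8 of the 10 genes, 6 other family genes, 32 signalling genes and 9804 of all genes were called, against 9949 without it. Among the family genes and the 12 signalling genes with at least 1.5-fold change, only Epha1 lost its call. With the authors' factors the median log2 fold change of all genes was -0.08 in place of 0.0035. Depth limits Epha3, Epha5, Epha1 and Epha8, with 16, 35, 109 and 78 counts in K36M.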
